A study of Oryctolagus cuniculus with 4 samples.

Results

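Smooth muscle cells of the rabbit bladder mucosa were described in droplet-based scRNA-seq of 4 samples from adult New Zealand rabbits. Injury_1 and Injury_2 were taken 10 days after a focal resection of the mucosa, and Normal_1 and Normal_2 came from mucosa without injury. The labels name no transgene or drug, and they call the tissue urothelium, although the piece that was digested with collagenase II was mucosa separated from the muscle layer. Each sample gave 1 library, and the study calls the 2 libraries of a condition biological replicates without naming the animals, so p-values measure the spread between these samples. Cells were chosen by measured values. A member had at least 500 unique molecular identifiers (UMIs, each counting 1 captured RNA molecule), at least 200 genes and at most 15% of its UMIs in 13 mitochondrial genes. It held a UMI of at least 3 of MYH11, ACTG2, DES and LMOD1, and of fewer than 3 of the 6 pericyte genes RGS5, RGS4, HIGD1B, ABCC9, COX4I2 and IBSP. DCN and LUM together took under 0.5% of its UMIs, and PTPRC and PECAM1 were at 0. This rule found 301 of 21945 kept cells, 1.37% of all, with 30, 49, 46 and 176 for Injury_1, Injury_2, Normal_1 and Normal_2.

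Smooth muscle shortens when myosin of the MYH11 type pulls on actin filaments, which are anchored in dense bodies and stiffened by desmin. Bladder mucosa holds smooth muscle around its vessels and, in many mammals, as thin bundles of a muscularis mucosae, and the 2 kinds are known to share most contractile genes while visceral muscle carries more ACTG2 and DES. Calcium from the sarcoplasmic reticulum, controlled by RYR2, CASQ2 and PLN, tunes contraction, and MYOCD, a partner of the transcription factor SRF, switches contractile genes on.

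The libraries held 28745017 to 47881609 UMIs, and the members held 180479, 343689, 205412 and 1280066 UMIs for Injury_1, Injury_2, Normal_1 and Normal_2. The median member had 5880, 6578, 4548 and 6964 UMIs in the same order, so the members of Normal_1 were the shallowest. Pairs of libraries shared 8 to 13 cell barcodes, and no member's barcode was shared. The median mitochondrial share of members was between 10.5% and 12.6%, close to the limit. A limit of 10% would leave 10, 16, 2 and 79 members in the order above. Only 6 members were in the top 5% of doublet scores of their library, and 8 held 2 or more of the epithelial markers. Keratin and other epithelial RNA was present at low levels, since 65 members held at least 1 of the 8 epithelial markers, and their summed level ranged from 32.0 CPM (UMIs of a gene scaled to a fixed total per library) in Injury_2 to 449 CPM in Injury_1. In the collagen-poor members defined below it was 449, 31.1, 131 and 458 CPM for Injury_1, Injury_2, Normal_1 and Normal_2, and 2 deep cells of Normal_2, with 23591 and 23953 UMIs, held 5 and 6 of these markers. The summed level of the 7 endothelial markers ranged from 33.6 to 112 CPM and that of the 6 immune markers from 2.34 to 33.2 CPM, with PECAM1 and PTPRC at 0 by the rule. Only 1 of the 5 listed striated muscle markers was in the files, and it had 0 UMIs in the members.

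Many cells lay near each limit of the rule. Of 988 kept cells with at least 3 of the 4 smooth muscle genes, 464 were lost because they held 3 or more pericyte genes, 204 because of DCN and LUM, and 19 because of PTPRC or PECAM1. Members with exactly 3 of the 4 genes numbered 207 and those with all 4 numbered 94. Just outside lay 727 otherwise matching cells with 2 of the 4 genes, of which 596 were in Normal_2. At the pericyte limit, 114 members held 2 pericyte genes, and 143 cells just outside held exactly 3. At the DCN and LUM limit, 30 members were at 0.25% or more of their UMIs, and 53 cells just outside were at under 1%.

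The members were of 2 kinds by their collagen, 193 low and 108 high, and the name smooth muscle fitted the low kind better as a sum over cells. Single cells went against this on both sides: 8 collagen-poor members held 2 or more epithelial markers, and 1 collagen-rich member of Normal_2 held 45 UMIs of MYH11 and 7 of RERGL. Other collagen-rich members of Normal_2 held 38, 34 and 28 UMIs of MYH11, while many held 1 or 2. Few cells like these held the RERGL and much of the MYOCD of the collagen-rich members. The fibrillar collagen genes COL1A1, COL1A2 and COL3A1, which the rule did not use, took a median of 0.375% of UMIs in the members of Injury_1 and 0.0769% in those of Normal_1. In Normal_2 they split the members, with 70 cells at or below 0.966% and 106 cells between 3.08% and 9.32%, near the median of 6.17% in the fibroblasts of that sample. In Injury_2, 2 members were above 2%, at 2.05% and 5.11%. The cells at 2% or more are called collagen-rich members here and the rest collagen-poor members. The split was set after these values were seen, and 13 members lay between 1% and 2% and 1 between 2% and 3%. Collagen-poor members also held pericyte RNA. The 6 pericyte genes of the rule summed to 975, 1103, 1266 and 1710 CPM in them for Injury_1, Injury_2, Normal_1 and Normal_2. The same sum was 38.8 CPM in the collagen-rich members of Normal_2 and 8200 to 12710 CPM in pericytes.

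**Figure D1:**
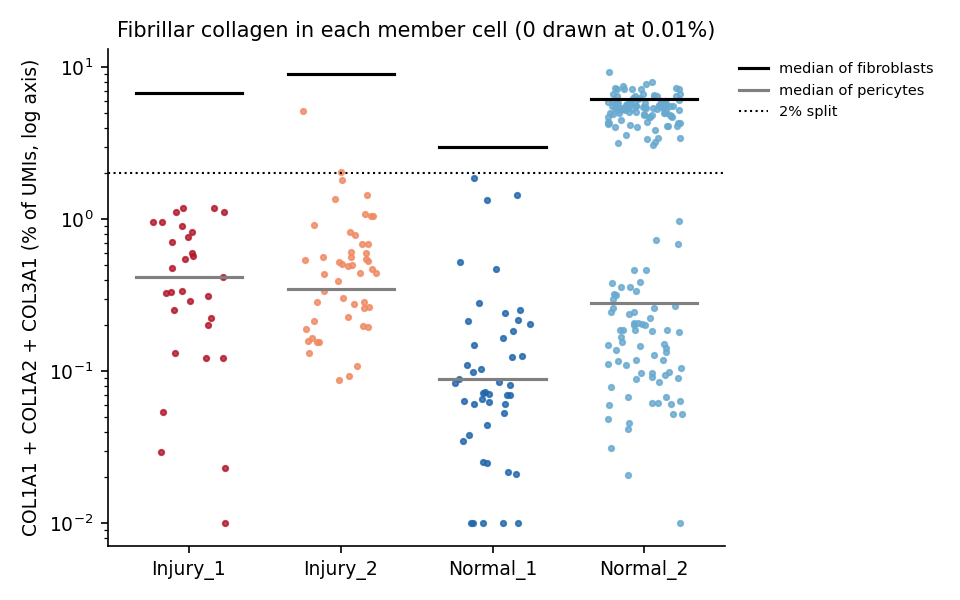
Share of each member's UMIs in COL1A1, COL1A2 and COL3A1 (percent, log axis) by library, 1 point per cell, with the medians of fibroblasts (black) and pericytes (grey) and the split at 2% (dotted). Normal_2 has 106 cells in a separate upper group, and the other libraries have 2 in all, both in Injury_2.

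The collagen-rich members of Normal_2 held the smooth muscle genes that the rule required beside collagen at a level near that of fibroblasts. Since a member had to hold at least 3 of the 4 rule genes, levels of these genes above those of fibroblasts were set by the choice of cells. MYH11, the myosin heavy chain, was at 656 CPM in them against 4557 CPM in the collagen-poor members of the same library and 102 CPM in its fibroblasts. ACTG2, the visceral gamma-actin, was at 804 CPM against 3462 and 131 CPM. LMOD1, which starts new actin filaments, was at 180 CPM against 570 and 1.18 CPM. DES, which codes desmin, was at 5.70 CPM against 344 and 1.70 CPM, so all 4 rule genes lay between the collagen-poor members and the fibroblasts. Outside the rule, MYOCD was at 13.7 CPM against 290 and 2.88 CPM, and SORBS2, an adaptor at actin anchoring sites, at 19.4 against 704 and 0.590 CPM.

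Other genes were higher in the collagen-rich members. ADAMDEC1, a secreted metalloprotease, was at 1690 CPM in the collagen-rich members, 2.48 CPM in the collagen-poor ones and 281 CPM in the fibroblasts of Normal_2. MMP2, a gelatinase, was at 1156, 17.4 and 844 CPM, and LOX, which crosslinks collagen, at 560, 2.48 and 264 CPM. WIF1, a secreted Wnt antagonist, was at 245 CPM in the collagen-rich and 0 CPM in the collagen-poor members. HHIP, a hedgehog antagonist, was at 666 CPM against 84.3 CPM in the collagen-poor members, and BMP4 at 1001 against 69.4 CPM. ADAMDEC1, MMP2 and LOX were thus above the fibroblast level as well. TGFB3, a growth factor of the TGF-beta family, went the other way at 9.13 CPM in the collagen-rich and 149 CPM in the collagen-poor members. Other genes of the fibroblasts differed in how far they were shared. COL14A1, a fibril-associated collagen, was at 2891 CPM against 3201 CPM in fibroblasts, PCOLCE, which helps to process procollagen, at 1155 against 989 CPM, and LPL, lipoprotein lipase, at 875 against 758 CPM. APOD was at 35.4 CPM against 3699 CPM and SFRP2 at 3.42 against 835 CPM. DCN at 596 CPM and LUM at 184 CPM were held down by the rule itself. In 1 library this is a description with no test, and 4 of the 6 members with a high doublet score were collagen-rich. The comparisons of injured and normal libraries below are given for all members, for collagen-poor members or for both. Levels of single genes are mostly those of collagen-poor members, and their order can differ over all members, as for ACTG2, ACTA2 and Tpm2.

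**Figure D2:**
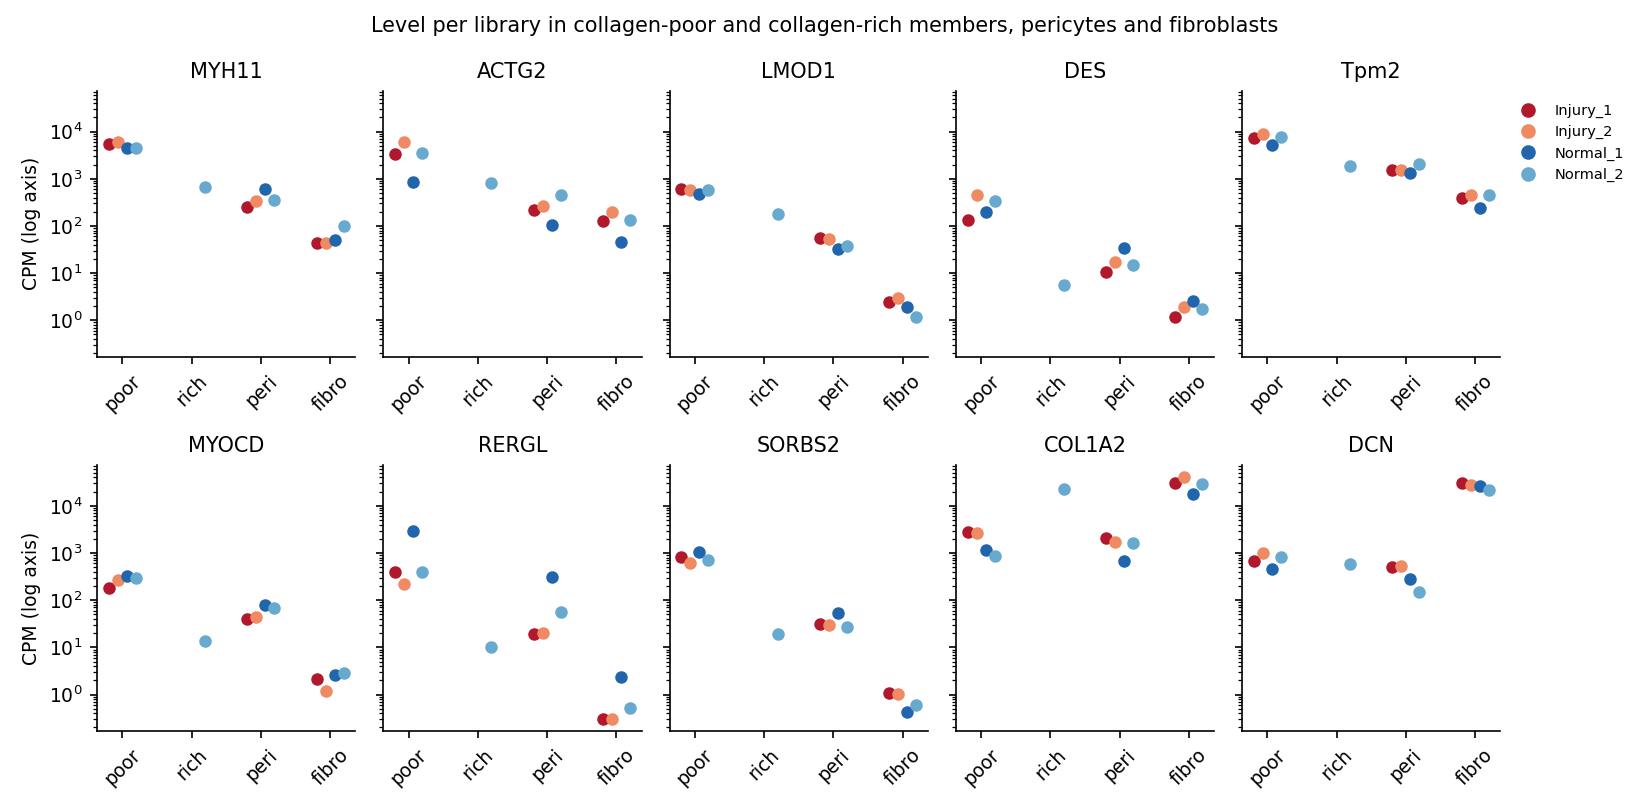
Level (CPM, log axis) of 10 genes per library in collagen-poor members (poor), the collagen-rich members of Normal_2 (rich), pericytes (peri) and fibroblasts (fibro), 1 point per library, with values under 0.3 drawn at 0.3. MYOCD and DES of the collagen-rich members lie below the pericyte range of MYOCD and DES, and their COL1A2 lies in the fibroblast range.

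In the collagen-poor members the contractile genes of the rule were high in every library. MYH11 was at 5585, 5964, 4581 and 4557 CPM for Injury_1, Injury_2, Normal_1 and Normal_2. The 4 libraries lay within a narrow range, with both injured libraries above both normal ones. LMOD1 was at 593, 590, 472 and 570 CPM in the same order, and again the injured libraries were the higher pair. Tpm2, the beta-tropomyosin that lies along the actin filament, was at 7441, 8726, 5219 and 7811 CPM, lowest in Normal_1, and the groups overlapped. Over all members Tpm2 was at 7441, 8417, 5219 and 3751 CPM, with both injured libraries above both normal ones. ACTA2, the alpha-actin of smooth muscle, was at 8572, 9820, 6450 and 12720 CPM in collagen-poor members, with the 2 normal libraries as the lowest and the highest. Over all members ACTA2 was at 8572, 9657, 6450 and 5995 CPM, without overlap and with Normal_2 lowest.

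Of the 4 rule genes, ACTG2 and DES differed most between libraries. ACTG2 was at 3408, 6107, 852 and 3462 CPM for Injury_1, Injury_2, Normal_1 and Normal_2, and DES at 133, 444, 200 and 344 CPM. In collagen-poor members Normal_1 was lowest for ACTG2 and Injury_1 for DES, so the groups overlapped for both. Over all members ACTG2 was at 3408, 5973, 852 and 1642 CPM, with both injured libraries above both normal ones. DES was at 133, 416, 200 and 112.5 CPM over all members, with overlap. A UMI of DES was found in 61.1% of the collagen-poor members, in 4.63% of the collagen-rich ones and in 0.393% of PTPRC-positive cells, at median depths of 5047, 7851 and 5492 UMIs. Thinned to 1000 UMIs per cell, the 3 shares were 20.8%, 0.481% and 0.0769%. DES is a gene of the rule, so a share above that of immune cells was partly set by the choice of members.

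The ACTG2 of a library came from few cells. In the median collagen-poor member ACTG2 was at 999, 1216, 592 and 896 CPM for Injury_1, Injury_2, Normal_1 and Normal_2, while single cells reached 14564, 77209, 3507 and 35011 CPM. Cells with 0.5% or more of their UMIs in ACTG2 (ACTG2-high) numbered 8, 10, 0 and 7, and they held 80.5%, 85.8%, 0% and 72.5% of the ACTG2 UMIs of their library's collagen-poor members. Without them ACTG2 was at 971, 1233, 852 and 1097 CPM, with Normal_1 still the lowest, and the narrower range follows from removing cells by this gene. The limit of 0.5% was set after these values were seen. The ACTG2 share was continuous across it, with 13 cells between 0.25% and 0.5% and 11 between 0.5% and 1%, so ACTG2-high stands here for a range of one gene, and whether these cells are a type of their own was not tested. Many ACTG2-high cells held more DCN and LUM than most other collagen-poor members. The highest were at 0.491% in Injury_1, 0.311% in Injury_2 and 0.494% in Normal_2, while a cell of Injury_2 was at 0%. How many such cells the rule's limit of 0.5% removed was not tested.

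RERGL, a small Ras-related GTPase often used to mark vascular smooth muscle, was nearly absent from the same cells. Of the 25 ACTG2-high cells, 1 held a UMI of RERGL, against 119 of the 168 other collagen-poor members. The ACTG2-high cells were the deeper ones, with medians of 6568, 8665 and 7008 UMIs against 5342, 6256 and 4892 UMIs in Injury_1, Injury_2 and Normal_2. RERGL was at 0, 0 and 18.7 CPM in the ACTG2-high cells of these libraries and at 583, 317 and 463 CPM in the others. In Normal_1, which had no ACTG2-high cell, RERGL was at 2979 CPM, and 42 of its 46 members held it.

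**Figure D3:**
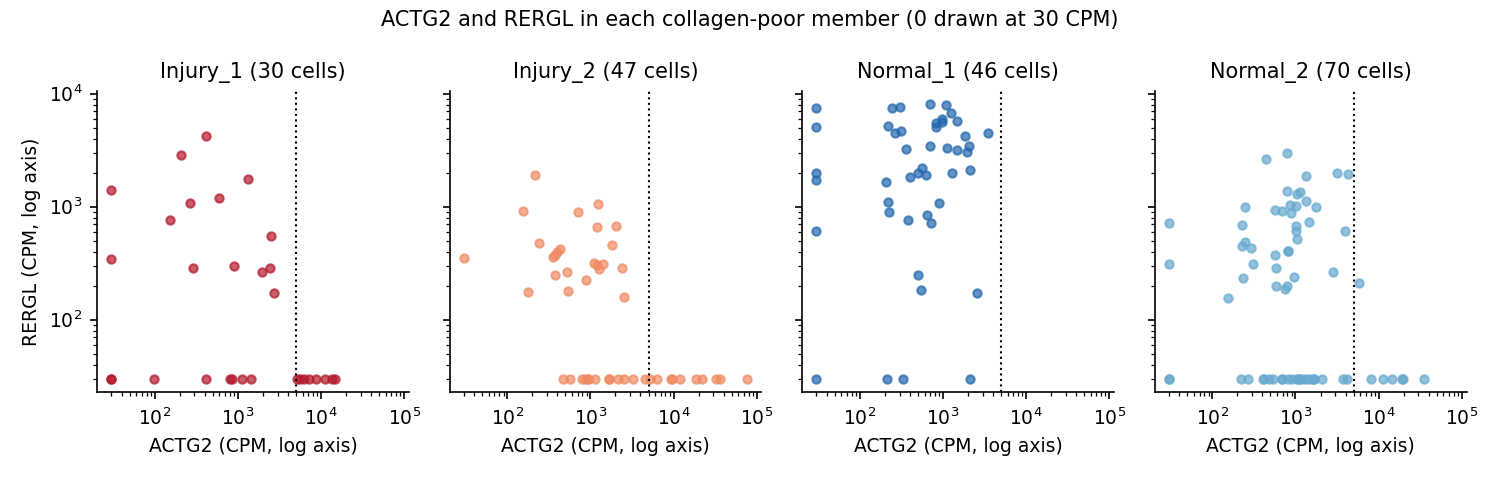
RERGL against ACTG2 (both CPM, log axes) in each collagen-poor member, 1 panel per library, with 0 drawn at 30 CPM and the ACTG2-high limit dotted. The cells right of the dotted line lie on the floor of RERGL apart from 1 in Normal_2, and Normal_1 has no cell right of it.

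Other genes divided with ACTG2 in the same direction in all 3 libraries that held ACTG2-high cells. Genes were named where the higher side had at least 50 CPM in each of these libraries and the smallest of the 3 differences was largest. MYH11, TPM1, SORBS2, RYR2 and DES were not ranked in this way and came from a fixed list of muscle genes. PDLIM4, a PDZ and LIM protein of actin bundles, was at 176, 116 and 93.4 CPM in the ACTG2-high cells of Injury_1, Injury_2 and Normal_2 and at 0 CPM in the other members of these libraries. SMTNL1, a smoothelin-like protein, was at 52.8, 137 and 187 CPM and at 0 CPM in the others. NCAM1, an adhesion molecule, was at 106, 158 and 187 CPM against 8.09, 4.41 and 8.57 CPM. In the 3 libraries these genes were thus found mainly or, in these sums, only in the ACTG2-high cells, but on few UMIs. The ACTG2-high cells held 10, 11 and 5 UMIs of PDLIM4, 3, 13 and 10 of SMTNL1 and 6, 15 and 10 of NCAM1. In Normal_1, without ACTG2-high cells, PDLIM4 had 2 UMIs. SEMA3C, a secreted guidance cue, was at 70.3, 190 and 205 CPM against 0, 4.41 and 14.3 CPM. MYH11 was also higher in the ACTG2-high cells, at 8071, 9223 and 7861 CPM against 4441, 4603 and 4051 CPM, and so was TPM1, at 5961, 9908 and 6890 CPM against 3867, 4065 and 3834 CPM.

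Genes lower in the ACTG2-high cells were RERGL, the pericyte gene COX4I2 of the rule, FABP3 and several with known roles in signalling and adhesion. FABP3, a fatty acid carrier, was at 17.6, 21.1 and 0 CPM against 146, 150 and 171 CPM. JAG1, a Notch ligand of vessel walls, was at 87.9, 10.5 and 0 CPM against 453, 308 and 191 CPM. SORBS2 was at 264, 127 and 56.0 CPM against 1084, 819 and 803 CPM, and RYR2, the calcium release channel, at 35.2, 31.6 and 37.4 CPM against 218, 225 and 123 CPM. Each of these was lower in all 3 libraries. DES did not divide in 1 direction, at 35.2, 1086 and 1251 CPM against 178, 176 and 206 CPM, and neither did PLN, MYOCD and SGCA of the fixed list. The cells were split on ACTG2 of the same counts, so these values carry no test.

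Beside pericytes, which numbered 1173, and fibroblasts, which numbered 7292, the members led in genes of calcium stores and muscle membranes. SORBS2 averaged 803 ± 196 CPM (SD, n = 4) in collagen-poor members, 35.3 CPM in pericytes and 0.774 CPM in fibroblasts, CASQ2, the calcium buffer calsequestrin, 165 ± 37.6, 8.69 and 4.06 CPM, and PLN, which restrains the calcium pump, 77.4 ± 26.0, 2.94 and 0.684 CPM. SGCA, a sarcoglycan of the muscle membrane, averaged 169 ± 13.6 CPM against 16.2 and 6.85 CPM, and DTNA, a dystrobrevin, 63.4 ± 16.6 CPM against 3.88 and 2.02 CPM. PGM5, found at muscle adhesions, averaged 78.2 ± 25.6 CPM against 2.01 and 4.54 CPM. SBSPON, a secreted matrix protein, had the largest ratio of member to pericyte and fibroblast levels but a wide spread, at 38.8, 40.4, 141 and 32.2 CPM in Injury_1, Injury_2, Normal_1 and Normal_2. The ratio of MYH11, a gene of the rule, was 13.3, and those of SBSPON, PLN, SORBS2 and CASQ2 were 36.2, 26.3, 22.8 and 19.0. The classes were split on measured values of the same cells, so the ratios are a description. Another 419 cells held at least 3 genes of both the smooth muscle and the pericyte set, and SORBS2 averaged 425 CPM and RERGL 591 CPM in them.

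Receptors for the nerves of the bladder were scarce at this depth. CHRM2 and CHRM3, the muscarinic receptors of bladder muscle, had 0 UMIs in the members of every library. P2RX1, the purinergic receptor, had 2, 0, 1 and 2 UMIs in Injury_1, Injury_2, Normal_1 and Normal_2, and AGTR1, an angiotensin receptor, had 4, 7, 3 and 13. These counts are too low to rank the libraries. EDNRA, an endothelin receptor, was at 66.5, 62.1, 112 and 47.1 CPM in collagen-poor members, below its mean of 133 CPM in pericytes, and PDE5A, which breaks down cyclic GMP, was at 316, 289, 355 and 280 CPM.

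Members made up 0.493% of kept cells in Injury_1 (95% Wilson interval 0.346% to 0.703%), 0.886% in Injury_2 (0.671% to 1.17%), 1.07% in Normal_1 (0.802% to 1.42%) and 2.92% in Normal_2 (2.52% to 3.38%). Both injured libraries were below both normal ones, with means of 0.690% ± 0.278 (SD, n = 2) and 1.99% ± 1.31 (SD, n = 2). The difference of -1.30 percentage points had a p of 0.33 in a two-sided exact permutation test, the smallest p that 2 libraries against 2 allow. It was -0.378 without Normal_2 and -2.23 without Normal_1. It was -6.34 with cells that held at least 2 of the 4 smooth muscle genes and -0.400 when the rule was applied after thinning to 2000 UMIs per cell. Collagen-poor members made up 0.493%, 0.850%, 1.07% and 1.16%, the order was kept, and the difference was -0.453 with the collagen-rich cells left out of both counts (exact p = 0.33). With a mitochondrial limit of 10% Normal_1 was at 0.0663%, below both injured libraries, and the exact p was 1. Cells that held all 4 smooth muscle genes made up 0.181%, 0.525%, 0.348% and 0.647%, and the groups overlapped. The intervals stand for counting error only, and the share of muscle in a piece of mucosa may also move with how the piece was cut, which was not measured.

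**Figure D4:**
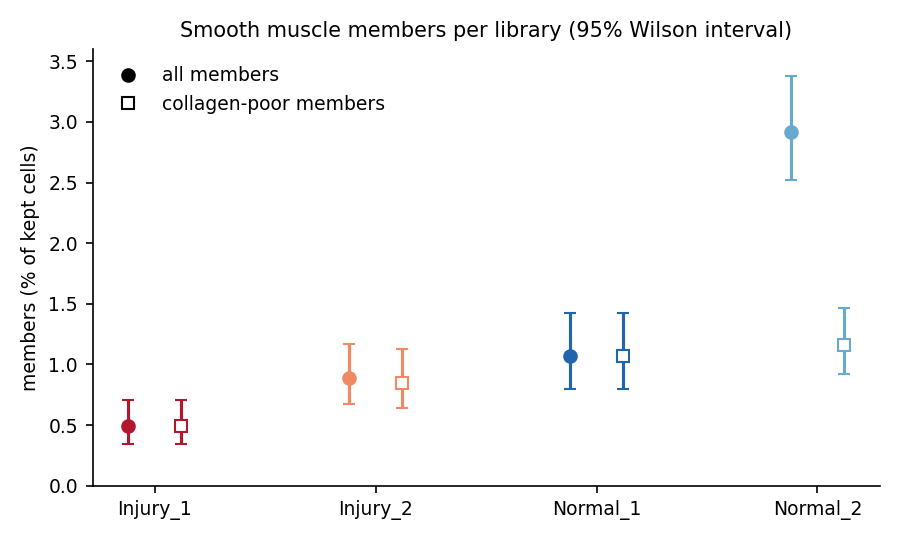
Members as a percent of the kept cells of each library, with 95% Wilson intervals, for all members (filled circles) and collagen-poor members (open squares). Normal_2 drops from 2.92% to 1.16% when collagen-rich cells are taken out, and the injured libraries stay the lowest pair.

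No gene passed the test between injured and normal members. UMI counts were summed per library and tested with edgeR's quasi-likelihood method, and 0 of 2845 genes passed an adjusted p of 0.05 over all members (0% higher and 0% lower in injured), with a smallest adjusted p of 0.676. At an unadjusted p under 0.05 there were 128 genes, 4.50%, and DESeq2 called 0. In collagen-poor members edgeR called 0 of 2726 genes (0% in either direction) with a smallest adjusted p of 0.169, 180 genes or 6.60% were under an unadjusted p of 0.05, and DESeq2 called 1, CRYAB. Across all members both injured libraries were above both normal ones for 17.2% of genes and below them for 13.9%, and in collagen-poor members for 19.2% and 16.8%. The counts rested on single libraries. Leaving out Normal_1 gave 437 calls over all members, with Normal_2 alone for the normal group, and leaving out Injury_2 gave 1. In collagen-poor members leaving out Injury_1, Injury_2, Normal_1 or Normal_2 gave 33, 13, 28 and 87 calls, and each such fit assumes that the lone library varies like the other group.

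Genes with small p are named here after their values were seen. CRYAB, a small heat shock chaperone abundant in muscle, was at 2615, 1553, 8953 and 8346 CPM for Injury_1, Injury_2, Normal_1 and Normal_2 in collagen-poor members. Both normal libraries were far above both injured ones, and the log2 fold change was -2.07 ± 0.30 (SE; edgeR adjusted p = 0.169; DESeq2 adjusted p = 1.99e-05). In pericytes of the same libraries the fitted log2 fold change of CRYAB was -3.44 (edgeR adjusted p = 0.0692) and in fibroblasts -1.18 (adjusted p = 0.154). Over all members CRYAB was at 2615, 1487, 8953 and 6379 CPM (log2 fold change -1.93; edgeR adjusted p = 0.676), and with a mitochondrial limit of 10% the log2 fold change was -1.06. HSPA8, a constitutive chaperone, was at 3563, 5016, 10210 and 9255 CPM over all members, with both normal libraries higher, and at 3563, 4762, 10210 and 4235 CPM in collagen-poor members, where the groups overlapped. HSPB1, another small heat shock protein, likewise was at 4643, 7294, 8442 and 13470 CPM over all members, without overlap, and at 4643, 7207, 8442 and 7127 CPM in collagen-poor members, with overlap. ATP8, a mitochondrial gene and so part of the rule's limit, was at 111, 83.9, 394 and 305 CPM in collagen-poor members, with both normal libraries higher. Its log2 fold change was -1.86 there (edgeR adjusted p = 0.275), -1.80 in pericytes and -1.68 in fibroblasts. The fitted difference of ATP8 thus had the same sign in all 3 classes. The median mitochondrial share over all members did not follow the groups, being highest in Normal_1 (12.6%) and lowest in Normal_2 (10.5%). Whether RNA or mitochondrial content had a part in the results was not tested. Among collagen-poor members the group difference of CRYAB without the ACTG2-high cells was -1.82 ± 0.32 (SE; edgeR adjusted p = 0.247).

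CCN3, a matricellular protein of vessel walls, was at 227, 249, 53.6 and 34.7 CPM in collagen-poor members of Injury_1, Injury_2, Normal_1 and Normal_2. The injured pair was high without overlap, and the log2 fold change was 2.47 ± 0.36 (SE; edgeR adjusted p = 0.169). Over all members it was 2.65 (edgeR adjusted p = 0.676), and there it was 1.18 ± 1.11 with fewer than 2 pericyte genes per cell, 1.58 ± 0.60 with all 4 smooth muscle genes and 1.74 ± 1.25 with a mitochondrial limit of 10% (SE). S100A4, a calcium-binding protein of motile and matrix-forming cells, was at 1900, 1755, 579 and 768 CPM, again with both injured libraries higher (log2 fold change 1.41 ± 0.30 (SE); edgeR adjusted p = 0.348). Over all members the log2 fold change of S100A4 was 1.86, and there it was 0.99 with all 4 smooth muscle genes and 3.07 with a mitochondrial limit of 10%, where it passed (edgeR adjusted p = 0.0451). In pericytes CCN3 was at 117, 41.6, 156 and 53.8 CPM, where the groups overlapped. The difference between the response of collagen-poor members and that of pericytes did not pass for CCN3 or for S100A4 (edgeR adjusted p = 0.489 for each). HSPA2, a heat shock chaperone, was at 233, 261, 34.1 and 84.3 CPM, and FEZ1, a kinesin adaptor, at 366, 407, 117 and 191 CPM. All 4 genes had both injured libraries on the higher side. ART4, a cell surface protein, was at 105, 96.3, 19.5 and 27.3 CPM in collagen-poor members, also with the injured pair higher (edgeR adjusted p = 0.348). ART4 was higher in ACTG2-high cells, at 281, 253 and 131 CPM in Injury_1, Injury_2 and Normal_2, and Normal_1 had no such cell. In the other collagen-poor members ART4 was at 24.3, 30.8, 19.5 and 11.4 CPM for Injury_1, Injury_2, Normal_1 and Normal_2, a smaller difference with the injured pair still higher.

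Of the 15 interferon-related genes in the files 5 could be tested and 0 passed. All 5 had both injured libraries above both normal ones, but genes such as IFIT3 and GBP1 passed the filter on low counts through the injured libraries, which favours that side, so the count is no support. This order was one that 17.2% of all genes had over all members and 19.2% in collagen-poor members. Their median log2 fold change was 1.10 over all members, beside -0.03 over all genes. GBP1, a guanylate-binding protein, was at 454, 109, 43.8 and 17.4 CPM for Injury_1, Injury_2, Normal_1 and Normal_2. IFIT3 was at 116, 55.9, 9.74 and 0 CPM, from 21, 18, 2 and 0 UMIs, and B2M, the light chain of MHC class I, at 1978, 1429, 867 and 909 CPM. Injury_1 was the highest for each of these 3 genes. In pericytes GBP1 was called between injured and normal (888, 450, 42.4 and 69.6 CPM; log2 fold change 3.54; edgeR adjusted p = 0.0375) and so was IFIT3 (360, 208, 43.5 and 22.2 CPM; edgeR adjusted p = 0.0465). Immune markers were also higher in injured members, at 33.2 and 21.8 CPM summed over the list in Injury_1 and Injury_2 against 4.87 and 2.48 CPM in Normal_1 and Normal_2, with PTPRC at 0, and their part in the result was not tested.

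The median of the extracellular matrix list changed sign with the collagen-rich cells, though not every gene of the list did. Over all members the 23 tested genes had a median log2 fold change of -0.49 with 6 positive. In collagen-poor members the 19 tested genes had a median of 1.02 with 14 positive, and 13 had both injured libraries above both normal ones, beside 19.2% of all genes. The collagen-poor set was made by removing cells rich in 3 of these genes, COL1A1, COL1A2 and COL3A1, nearly all from Normal_2, so the change of sign follows in part from how the set was made. In both settings 0 of these genes passed the test. COL4A2, a basement membrane collagen, was at 914, 879, 268 and 357 CPM for Injury_1, Injury_2, Normal_1 and Normal_2 in collagen-poor members, and COL4A1 at 405, 578, 122 and 181 CPM. FN1, fibronectin, was at 665, 857, 205 and 307 CPM, and all 3 genes were higher in both injured libraries, with log2 fold changes of 1.49 ± 0.32, 1.67 ± 0.37 and 1.54 ± 0.36 (SE; edgeR adjusted p = 0.348 for each). COL1A2 was at 2826, 2619, 1173 and 860 CPM, but the collagen-poor members were split off on this gene among others. TIMP1, an inhibitor of metalloproteases, went the other way at 1690, 1513, 2064 and 6044 CPM, with Normal_2 highest. The fibroblast markers, of which 4 of 5 were in the files, include COL1A1 itself and DCN and LUM, which the rule limits, and their summed level was 1912, 2230, 833 and 1355 CPM in collagen-poor members against 39770 to 59060 CPM in fibroblasts. Their part in the result was not tested.

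**Figure D5:**
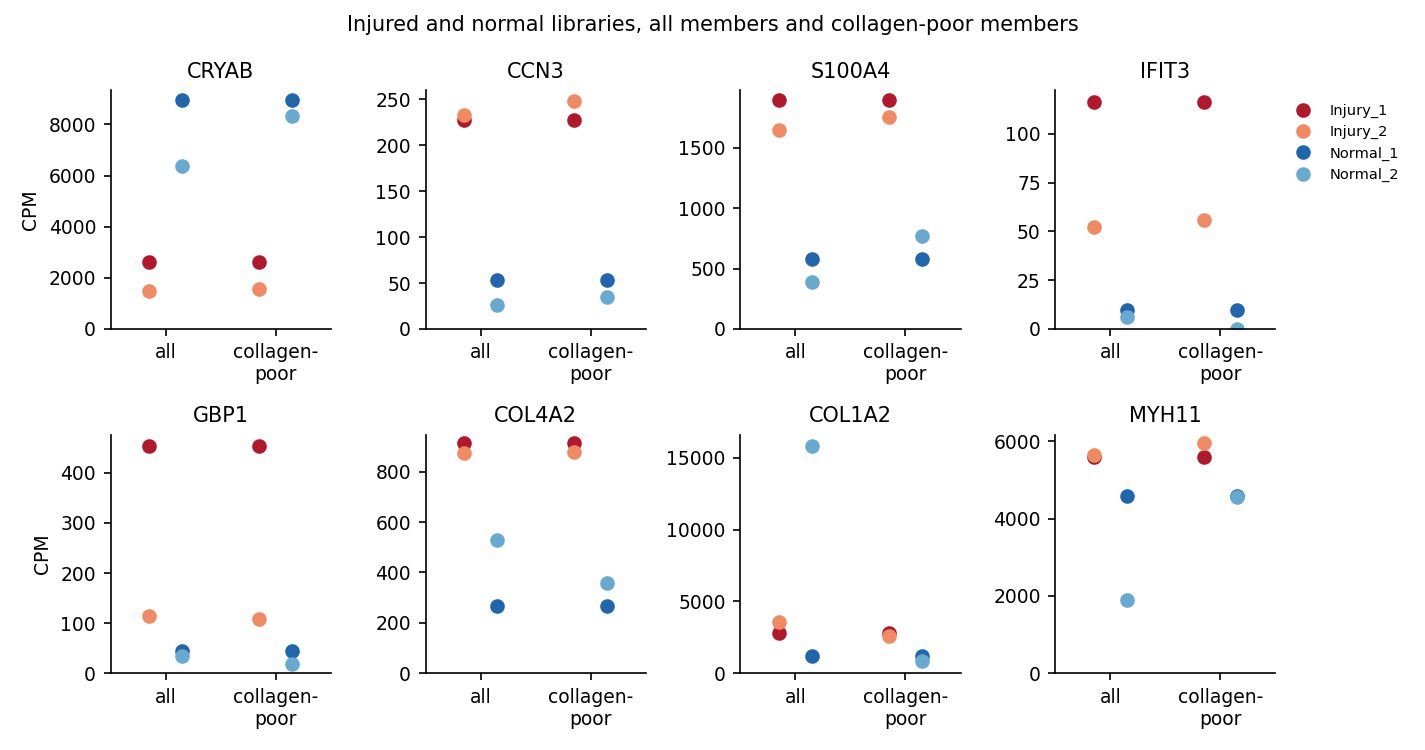
Level (CPM, axes from 0) of 8 genes in injured (left of each tick) and normal (right) libraries, for all members and for collagen-poor members, 1 point per library. CRYAB, CCN3, S100A4, IFIT3, GBP1 and COL4A2 keep the 2 groups apart in both settings, and COL1A2 does so only without the collagen-rich cells.

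The contractile filament list had a positive median difference that was smaller without the collagen-rich cells. Over all members single genes ranged from a log2 fold change of -0.10 for PPP1R14A to 1.87 for ACTG2. Of 13 contractile filament genes tested, 0 passed, 12 were positive with a median log2 fold change of 0.58 over all members, and 11 were positive with a median of 0.26 in collagen-poor members. The list holds MYH11, ACTG2 and LMOD1, on which members were chosen, and without them 9 of 10 were positive with a median of 0.52 over all members and 8 of 10 with a median of 0.21 in collagen-poor members. CALD1, which blocks myosin at rest, was at 5386, 5567, 5204 and 3960 CPM in collagen-poor members of Injury_1, Injury_2, Normal_1 and Normal_2, and TPM1 at 4527, 5787, 5034 and 4240 CPM. The injured pair was above the normal pair for CALD1 and not for TPM1. The 13 genes of intermediate filaments and dense bodies had medians of 0.53 and 0.11, with 0 called, and without DES, a gene of the rule, the other genes had medians of 0.47 and 0.12. VIM, vimentin, was at 10360, 11600, 9099 and 8713 CPM. The collagen-rich cells left out numbered 0, 2, 0 and 106 for Injury_1, Injury_2, Normal_1 and Normal_2. In Normal_2 the contractile list summed to 11280 CPM in them and to 40940 CPM in collagen-poor members. Their part in the difference between the 2 settings was not tested.

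Calcium genes differed in direction between the 2 settings. Of 11 calcium and channel genes tested, 0 passed, and 10 were positive with a median log2 fold change of 0.41 over all members, against 4 with a median of -0.06 in collagen-poor members. Of 8 transcription factors tested over all members, 6 were positive with a median of 0.27, and of 9 in collagen-poor members, 6 with a median of 0.07, with 0 called in either. Over all members MYOCD was at 177, 253, 321 and 101 CPM for Injury_1, Injury_2, Normal_1 and Normal_2, with overlap. In collagen-poor members MYOCD was at 177, 264, 321 and 290 CPM, with both normal libraries higher, and MEF2C, a muscle regulator, at 393, 388, 555 and 211 CPM. RYR2 was at 161, 168, 229 and 112 CPM and KCNMB1, the beta subunit of the large potassium channel, at 61.0, 239, 122 and 144 CPM. The receptor genes had a median of 0.03 over all members, with 4 of 8 positive, and -0.07 in collagen-poor members, with 2 of 7 positive and 0 called.

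The remaining lists also had 0 genes called. In collagen-poor members the median log2 fold change was 0.43 for 16 genes of dissociation and immediate early response, with both injured libraries above both normal ones for 5, beside 19.2% of all genes. JUN was at 3347, 2945, 2054 and 1306 CPM there, without overlap, and FOS at 482, 401, 428 and 121 CPM, with overlap. It was 0.38 for 11 inflammatory mediators, of which CCL2 was at 294, 531, 14.6 and 577 CPM, lowest in Normal_1. It was 0.11 for 16 genes of the TGF-beta and growth factor list, 0.48 for 10 genes of the synthetic state, 0.49 for 6 of Wnt and axon guidance, and 0.08 for 8 of glycolysis and hypoxia. All 4 cell cycle genes tested were negative, with a median of -0.33, and TOP2A, a topoisomerase of dividing cells, was at 38.8, 52.8, 77.9 and 44.6 CPM. Over all genes the median was -0.01. Over all members the medians were 0.09 for dissociation, 0.585 for inflammatory mediators, -0.06 for TGF-beta, 0.54 for the synthetic state, -0.39 for Wnt and axon guidance with 1 of 6 positive, 0.03 for glycolysis and -0.26 for the cell cycle. The sign thus differed between the 2 settings for the TGF-beta and Wnt lists, and these medians were not tested.

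The response of members was then set against that of pericytes and fibroblasts of the same libraries by a test of the difference of the log2 fold changes. Against pericytes edgeR called 0 of 5497 genes (0% in either direction), with 323 under an unadjusted p of 0.05 and a smallest adjusted p of 0.0645. DESeq2 was not run for this difference. Leaving out Injury_1, Normal_1 or Normal_2 gave 30, 302 and 21 calls. Against fibroblasts edgeR called 13 genes higher and 41 lower of 7279 tested, 0.179% and 0.563%. The count changed when Injury_2 or Normal_1 was left out, and without Normal_2 more calls were higher than lower, so the balance of directions rested on that library. Without the collagen-rich cells edgeR called 13 higher and 16 lower of 7134, 0.182% and 0.224%. The 2 sets shared 16 genes, 29.6% of the first and 55.2% of the second. MMP2, LOX, BMP4, HHIP and WIF1, described above in the collagen-rich cells, were called only with these cells included.

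Among the genes called in both, HSPA2 was at 233, 261, 34.1 and 84.3 CPM in collagen-poor members and at 68.6, 89.8, 79.9 and 98.5 CPM in fibroblasts of Injury_1, Injury_2, Normal_1 and Normal_2. The injured pair was higher in members and not in fibroblasts. In pericytes HSPA2 was at 126, 135, 59.6 and 44.3 CPM, also with the injured pair higher, and the difference from pericytes did not pass (edgeR adjusted p = 0.833 with all members). IGFBP5, a binding protein of insulin-like growth factors, was higher in the injured pair of collagen-poor members and lower in that of fibroblasts. Over all members it was at 1103, 1283, 336 and 1162 CPM, where the groups overlapped. It was at 1103, 1317, 336 and 575 CPM in collagen-poor members of Injury_1, Injury_2, Normal_1 and Normal_2, and at 1120, 1375, 2720 and 3184 CPM in their fibroblasts. In pericytes IGFBP5 was at 867, 681, 135 and 120 CPM and was itself called higher in injured (log2 fold change 2.58; edgeR adjusted p = 0.0329). The difference between members and pericytes did not pass (edgeR adjusted p = 0.7205 with all members and 0.7093 without the collagen-rich cells). ADORA2B, an adenosine receptor, was at 49.9, 28.0, 63.3 and 49.6 CPM in collagen-poor members and at 39.6, 41.6, 9.28 and 6.03 CPM in fibroblasts. SERPINE2, a protease inhibitor, was at 77.6, 90.1, 185 and 107 CPM in collagen-poor members and at 30.3, 21.7, 3.58 and 4.13 CPM in fibroblasts. Both genes were on the injured side in fibroblasts and not in members. CXCL8, a neutrophil attractant, was at 731, 177, 68.2 and 359 CPM in collagen-poor members and at 2180, 1677, 133 and 225 CPM in fibroblasts. GBP1, IFIT3 and PRSS23, a serine protease, were called only without the collagen-rich cells (edgeR adjusted p = 0.0141, 0.00904 and 0.0201). IFIT3 had 2 and 0 UMIs in the normal members, so its fitted difference has no firm size. PRSS23 was at 94.2, 143, 24.3 and 17.4 CPM in those members and at 178, 232, 181 and 175 CPM in fibroblasts.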

How the data were processed

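Mucosa of 2 injured and 2 normal bladder samples was profiled on the Chromium 3' v3 platform, and the authors deposited filtered matrices of UMI counts per gene and cell barcode, made with Cell Ranger 6.0.1 according to the submitters' processing notes. The genome release was not given in the sources used here, and 9771 of 18475 features carried a gene symbol. The deposited counts were not normalized. Members and gene lists were chosen with earlier results of these data known, and the splits on collagen (2%) and ACTG2 (0.5%) were set after seeing the values. Scrublet, run through scanpy 1.11.5, scored doublets, which stayed in the main results. Counts were summed per library and class, and levels (CPM) scale each sum to 1e+06 counts. Injured and normal sums were compared with edgeR 4.0.16 (quasi-likelihood test, filterByExpr, TMM, Benjamini-Hochberg over all genes tested, threshold 0.05) in R 4.3.3, with DESeq2 1.42.0 as an alternative. Differences between classes were tested as the class by condition term with the library as a block. Shares were compared by an exact permutation test, and intervals are 95% Wilson intervals, which cover counting error only. Thinning drew 1000 or 2000 UMIs per cell without replacement. Python 3.11.15, numpy 2.4.6, scipy 1.17.1 and matplotlib 3.10.9 were used, and the fits were tested on simulated data. Genes were named by fixed rules: the genes of the rule, called genes without overlap that reached 20 CPM in the higher group, up to 6 genes of each list by level, and the 12 genes of at least 50 CPM with the largest ratio to pericytes and fibroblasts. Since 0 genes were called between injured and normal members, genes with small p, not all of them, were named after their values were seen, as were the genes of the collagen and ACTG2 splits and those of the differences between classes. Alternatives changed the scaling, the filters, the cell limits, the rule and the libraries used.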

Additional observations from a re-analysis of the deposited data

Results flagged for a closer look

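The injured-against-normal difference of members and that of fibroblasts from the same libraries differed, by the test of the difference itself, for 54 genes with all members and for 29 without the collagen-rich cells. Of the 16 genes in both sets, 11 had a symbol, were not used by the rule and had at least 3 UMIs in the members of each group. Values below are the difference of the log2 fold changes with all members, positive where the members' change was the more positive. HSPA2 had 2.40, CYP4B1 4.98, IGFBP5 2.07 and SPARCL1 1.82. ADORA2B had -2.94, SERPINE2 -2.91, CLU -2.58, CXCL8 -2.15, HLX -3.15, PARM1 -2.35 and GPRC5A -1.62. Over all members the groups overlapped for CYP4B1, IGFBP5, SPARCL1, ADORA2B, SERPINE2, CLU and CXCL8. In fibroblasts of Normal_1 and Normal_2, HLX was at 0.211 and 1.245 CPM and PARM1 at 1.265 and 0.917 CPM, near the floor. Against pericytes 0 genes were called. CYP4B1 was high in members of 1 library, at 161 CPM in members of Injury_1 against 2.91, 29.2 and 0.781 CPM in Injury_2, Normal_1 and Normal_2.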

How the results depend on the processing

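The count of genes called between injured and normal members was 0 and became 91 without the filter on low counts and 38 with a mitochondrial limit of 10%, and it ranged from 0 to 437 when 1 library was left out (437 without Normal_1, 1 without Injury_2). In collagen-poor members it was 0 and became 48 without the filter and 1 with DESeq2, with a range of 13 to 87 when 1 library was left out. Genes called in the lists went from 0 to 21 without the filter and 10 with the 10% limit, with a range of 0 to 70 (70 without Normal_1, 1 without Injury_2). For the difference from pericytes the count went from 0 to 3 with upper quartile scaling and 67 without the filter, with a range of 0 to 302. For the difference from fibroblasts it went from 54 to 105, 99 and, without the collagen-rich cells, 29, with a range of 34 to 285. The cause was not tested. Shares of members with a UMI, thinned to 1000 UMIs per cell, were 75.6% for MYH11, 55.6% for ACTG2, 13.5% for DES and 32.9% for LMOD1, against 100%, 95.02%, 40.9% and 95.4% unthinned. With the number in the titles as a replicate block, 0 genes were called over all members and 0 in collagen-poor members. Deviations of the libraries numbered 1 from their group means correlated at 0.008 over all members and -0.067 in collagen-poor members. With 2 libraries per group the deviations of a group mirror each other. These values therefore cannot tell whether same-numbered libraries share more than a number. The share difference and the log2 fold changes of CRYAB, CCN3, S100A4 and IFIT3 kept their sign in the settings run for each. Leaving out the collagen-rich cells turned the sign of uncalled matrix genes, with COL1A1 from -1.74 to 1.41, COL1A2 from -1.51 to 1.42, COL3A1 from -1.67 to 1.24 and FN1 from -0.51 to 1.54, and of the medians of the matrix, calcium, TGF-beta, receptor and Wnt lists. Members of Injury_1 held 180479 UMIs, which limits what can be detected there.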

Other observations

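Beside the members, 727 cells held 2 of the 4 smooth muscle genes and met every other limit, and 596 of them were in Normal_2 against 26 in Injury_1, 44 in Injury_2 and 61 in Normal_1. Cells with at least 3 genes of both the smooth muscle and the pericyte set numbered 118, 126, 94 and 81 in Injury_1, Injury_2, Normal_1 and Normal_2.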
